A study of Mus musculus with 11 samples.

Results

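The 7 genes described here are the 5 subunits of the muscle acetylcholine receptor (Chrna1, Chrnb1, Chrng, Chrnd and Chrne), the receptor tyrosine kinase Musk and the scaffold gene Rapsn. They were picked out by gene name, through the symbol, synonym or accession of each array probe. They make up 7 of the 27567 genes on the array and 10 of its 41121 usable probes. The set was chosen with earlier results of these data known, so the counts of its members below are descriptive. The muscle acetylcholine receptor is a pentamer of subunits that opens to let cations in when motor nerve terminals release acetylcholine. Embryonic muscle builds it with the gamma subunit, and after innervation the epsilon subunit takes the place of gamma. MuSK, with its co-receptor LRP4, answers nerve-derived agrin, and rapsyn, the product of Rapsn, then clusters the receptors under the nerve ending. Cultured myoblasts express most of these genes at a low level and increase them when they fuse into myotubes, before any nerve is present.

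The study profiled cultured cardiac progenitors, called mesoangioblasts, which are vessel-associated cells that can be grown from biopsies of muscle tissue. The KO-labelled cells came from dystrophic mice null for beta-sarcoglycan, with 1 sample each from atrium, ventricle and aorta. The WT-labelled cells came from wild-type mice, again with 1 sample each from atrium, ventricle and aorta. C2C12, a mouse skeletal myoblast line that fuses into myotubes when serum is lowered, served as the myogenic control and gave 2 samples, A and B. The labels give no strain, age, sex, culture condition or number of animals, and no treatment was named for any group. They state that KO-labelled progenitors go on to form skeletal muscle fibres and WT-labelled progenitors beating cardiomyocytes. The labels do not say whether samples of 1 group came from separate animals or cultures, so the p-values cover the spread among these samples only, and that spread may be technical.

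The 11 one-colour arrays became these 8 samples because 3 pairs of repeat arrays differed by less than spot noise and were averaged. Of the probes, 49 to 62% were well above background on each array. All WT arrays lay on 1 slide and all KO arrays on the other 2, so slide and genotype cannot be told apart directly. Each slide also held a C2C12 array, and the slide-blocked values below set each genotype against C2C12 from its own slides. For KO against WT their SE is 2 times that of the fit without the block. Sgcb, the targeted gene, read 2.34 to 2.99 in KO-labelled, 1.82 to 2.20 in WT-labelled and 2.41 to 2.82 in C2C12 samples. A lower Sgcb level in KO-labelled cells was therefore not seen (difference 0.63, SE 0.21, limma adjusted p = 0.071), which goes against the labels, and the deleted part of the gene is not stated. The directions reported for these genes hold only as far as the labels do.

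Promoter sequences are shown first because the receptor genes are textbook targets of the myogenic factors MyoD and myogenin, which bind E-boxes, and because 6 of the 7 genes differed between the groups. RefSeq promoters (build GRCm38.p6) were matched for 5 of the 7 genes, and the 250 bases before each annotated start are printed 5′ to 3′ on the gene's strand. Capitals mark E-boxes (CANNTG) and N-boxes (CCGGAA, searched on both strands), the second being a motif known from synapse-specific expression of receptor genes. E-boxes read the same on both strands in their fixed letters, and no E-box overlapped an N-box here. Chrna1 lies at chr2:73580339-73580588 on the minus strand, Chrnb1 at chr11:69795938-69796187 on the minus strand and Chrng at chr1:87205561-87205810 on the plus strand. Chrne lies at chr11:70619195-70619444 on the minus strand and Musk at chr4:58285712-58285961 on the plus strand.
Chrna1: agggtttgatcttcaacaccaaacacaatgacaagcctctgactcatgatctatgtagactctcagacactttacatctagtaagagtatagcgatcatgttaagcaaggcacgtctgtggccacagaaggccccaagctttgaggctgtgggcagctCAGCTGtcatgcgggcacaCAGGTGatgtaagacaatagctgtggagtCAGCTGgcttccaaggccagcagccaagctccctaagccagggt
Chrnb1: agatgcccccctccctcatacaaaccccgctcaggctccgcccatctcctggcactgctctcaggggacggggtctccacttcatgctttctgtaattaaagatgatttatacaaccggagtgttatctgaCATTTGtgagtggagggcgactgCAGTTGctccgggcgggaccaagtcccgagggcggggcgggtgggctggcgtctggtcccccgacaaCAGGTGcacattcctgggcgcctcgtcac
Chrng: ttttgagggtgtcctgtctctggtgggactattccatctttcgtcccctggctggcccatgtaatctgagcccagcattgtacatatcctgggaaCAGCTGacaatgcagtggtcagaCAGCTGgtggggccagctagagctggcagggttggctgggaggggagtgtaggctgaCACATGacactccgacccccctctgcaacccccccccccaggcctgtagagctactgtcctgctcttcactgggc
Chrne: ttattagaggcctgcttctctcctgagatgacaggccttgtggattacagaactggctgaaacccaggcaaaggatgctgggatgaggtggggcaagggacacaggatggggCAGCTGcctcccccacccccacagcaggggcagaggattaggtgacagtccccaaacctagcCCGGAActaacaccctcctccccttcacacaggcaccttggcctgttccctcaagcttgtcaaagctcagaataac
Musk: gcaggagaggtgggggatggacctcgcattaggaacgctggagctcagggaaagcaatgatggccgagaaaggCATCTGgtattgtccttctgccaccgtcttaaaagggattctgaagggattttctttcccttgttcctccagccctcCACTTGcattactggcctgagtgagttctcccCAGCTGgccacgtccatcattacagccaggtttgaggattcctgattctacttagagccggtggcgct

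The Chrna1, Chrnb1, Chrng and Musk windows each held 3 E-boxes, and 12.2% of the 32851 promoters of the table held 3 or more. The Chrne window held 1, and 66.2% of all promoters held at least 1. The form CAGCTG occurred 2 times in Chrna1 and 2 times in Chrng, against 1.26% of all promoters with 2 or more. Chrne and Musk held it 1 time each and Chrnb1 held none, while 13% of all promoters held at least 1. In Chrna1 the 2 CAGCTG matches began at positions -92 and -44 from the start, and in Chrng at -155 and -132. The Chrne window alone among the 5 held an N-box, which began at position -76 and which 12% of all promoters share. These matches describe letters in a window and not sites that are bound. Chrnd and Rapsn had no entry.

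**Figure D1:**
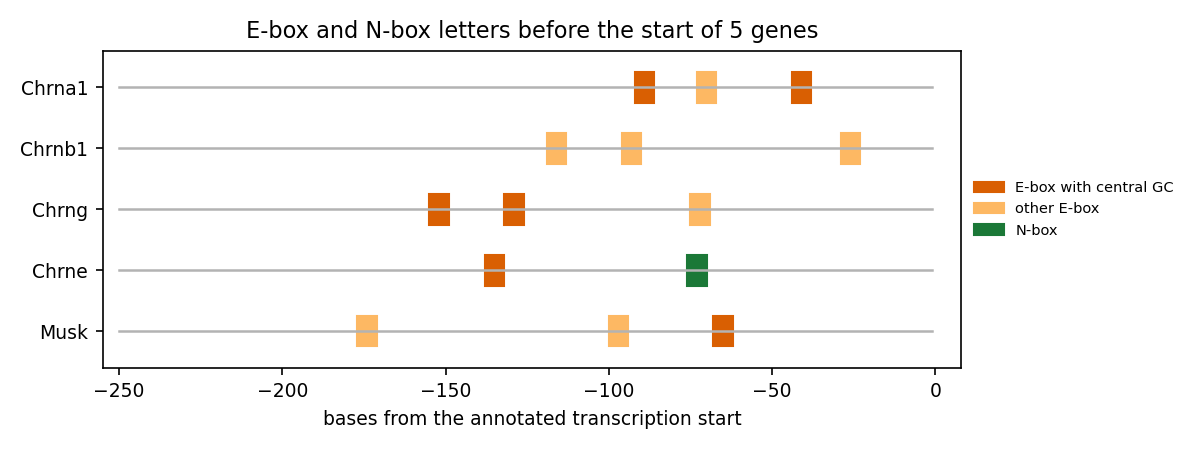
Positions of E-box and N-box letters in the 250 bases before the annotated start of 5 genes, with bases from the start on the horizontal axis and 1 line per gene. Orange boxes are E-boxes with a central GC, light boxes other E-boxes and the green box the N-box, which stands in Chrne only. Chrna1 and Chrng each carry 2 E-boxes with a central GC.

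Of the 7 members, 6 separated the heart samples. Chrna1, Chrnb1, Chrng, Chrnd, Musk and Rapsn were called higher in KO-labelled than in WT-labelled progenitors, 0 were called lower and 1 (Chrne) was not called. A gene was called where limma's adjusted p over all 15002 tested genes was under 0.05, and 13.7% of those genes were called higher and 16.1% lower. The median difference of the 7 members was 5.29 on the log2 scale, against -0.06 over all tested genes. That median is the fitted value of Musk, which no WT array measured above background, so it is not an exact size. All levels below are log2 signal relative to the 75th percentile of the array, so 0 is the level of that percentile and 1 unit is a 2-fold step. Levels of different probes are not comparable with each other. Probe positions are those of the array files (build mm8), and exon or UTR annotation of that build was not used here. Chrnb1 and Chrne were above background in all WT-labelled samples, Chrna1 in 1, and the other 4 in none. Those 4 were tested only because other samples measured them. Their p-values against WT-labelled cells rest on background readings, as do those of Chrna1 in part. Since these are whole cultures, fewer expressing cells and less RNA per cell cannot be told apart.

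Chrna1 encodes the alpha subunit, which carries the acetylcholine binding face and is present as a pair in each receptor. Its brightest probe (mm8 chr2:73366894-73366953, minus strand) read 5.34 in KO atrium, 5.73 in KO ventricle and 3.93 in KO aorta, against -3.95 in WT atrium. WT ventricle (-6.20) and WT aorta (-6.77) were not well above background, so 1 of 3 WT arrays measured the gene and no fold is given. All 3 KO-labelled samples lay far above the WT-labelled samples, with an adjusted p of 0.000404 and a slide-blocked one of 0.0296. The other probe (chr2:73364172-73364231) read 2.04, 2.35 and 0.68 in KO atrium, ventricle and aorta, and was not above background on any WT array. By that probe Chrna1 was higher in KO-labelled cells by at least 96.6-fold (adjusted p = 0.000146 over probes). C2C12 A and B read 5.61 and 4.55 with the brightest probe, both inside the KO-labelled range.

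Chrnb1 encodes the beta subunit, shared by the fetal and adult receptor. Its only probe (chr11:69601367-69601935, minus strand, a 60-base probe whose match is spread over 569 bases) read 0.08 in KO atrium, 0.63 in KO ventricle and -0.81 in KO aorta. It read -3.22, -2.58 and -3.27 in WT atrium, ventricle and aorta, all above background, and the groups did not overlap. Chrnb1 was thus the 1 called member with a level in every WT-labelled sample. The means were -0.04 ± 0.73 in KO-labelled and -3.02 ± 0.38 in WT-labelled samples (SD, n = 3 each), a 7.92-fold difference (log2 2.99, SE 0.40, limma adjusted p = 0.00322). The slide block ended this call (2.26, adjusted p = 0.196).

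Chrng encodes the gamma subunit of the fetal receptor. The brightest probe (chr1:89042737-89042796, plus strand) read 2.22 in KO ventricle, -0.39 in KO atrium and -2.40 in KO aorta, the widest spread of any member. No WT array was above background, with signals of -6.91 in atrium, -7.83 in ventricle and -6.71 in aorta. Every KO-labelled sample was above every WT-labelled one, by a group mean at least 26.3-fold higher (adjusted p = 0.00644). The other probe (chr1:89040668-89040949, a match spread over 282 bases) kept the same order of KO samples, with -1.65 in ventricle, -3.15 in atrium and -4.02 in aorta, and gave at least 3.90-fold (adjusted p = 0.0136 over probes). The fitted difference depended on which library was in the fit, at 5.76 without KO ventricle and 8.06 without KO aorta. With the slide block Chrng was not called (5.35 as fitted, adjusted p = 0.265).

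Chrnd, the delta subunit gene, lies next to Chrng on the same strand of chromosome 1. Its probe (chr1:89030049-89030108) read -1.43 in KO ventricle, -3.79 in KO atrium and -4.21 in KO aorta, all above background. In WT atrium, ventricle and aorta it gave -6.52, -6.24 and -6.37, none above background. The KO-labelled mean was at least 3.39-fold higher (adjusted p = 0.0197), the smallest of the called bounds. The call was lost without WT ventricle (adjusted p = 0.0584), without WT aorta (adjusted p = 0.0661) and with the slide block (1.55 as fitted, adjusted p = 0.645), and the fitted difference was 2.37 without KO ventricle and 3.77 without KO aorta.

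Chrne, the subunit of the adult receptor, did not separate the groups. The brightest probe (chr11:70431084-70431143, minus strand) was above background on all 11 arrays. It read -3.06, -3.09 and -3.29 in KO atrium, ventricle and aorta, against -3.52 in WT atrium, -3.20 in WT ventricle and -3.38 in WT aorta. C2C12 A and B gave -3.20 and -2.94. The ranges overlapped, and the difference was 0.22 (SE 0.15, 95% interval -0.14 to 0.59, adjusted p = 0.315). That interval leaves room for a change of up to 0.59 but not for one of the size seen in the other 6 genes. RefSeq lists another protein-coding gene, 4930544D05Rik, overlapping Chrne, and which of the 2 this probe reads was not tested. The other Chrne probe (chr11:70434610-70434669) was above background on 0 of 5 KO, 0 of 3 WT and 2 of 3 C2C12 arrays and was not tested.

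Musk and Rapsn act on the assembled receptor. Musk, the kinase that organises the postsynaptic membrane, read -1.73, -1.45 and -1.83 in KO atrium, ventricle and aorta with its probe at chr4:58467392-58467451 (plus strand). These 3 values lay within 0.39 of each other, while in WT atrium, ventricle and aorta the probe gave -6.71, -7.66 and -6.51, none above background. Musk was at least 9.42-fold higher in KO-labelled cells (adjusted p = 0.000152, and 0.0173 with the slide block, where the call held). Rapsn, which tethers receptors to one another and to the cytoskeleton, read 1.09 in KO atrium, 1.64 in KO ventricle and 0.51 in KO aorta. Its probe (chr2:90844530-90845684, plus strand, a match spread over 1155 bases) gave -6.99, -7.91 and -6.75 in WT atrium, ventricle and aorta, none above background. Rapsn was at least 63.2-fold higher in KO-labelled cells (adjusted p = 7.05e-05, slide-blocked 0.00474), again set against background readings. RefSeq also lists Gm30940, a long non-coding RNA, overlapping Chrna1, and Gm13778 overlapping Rapsn.

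**Figure D2:**
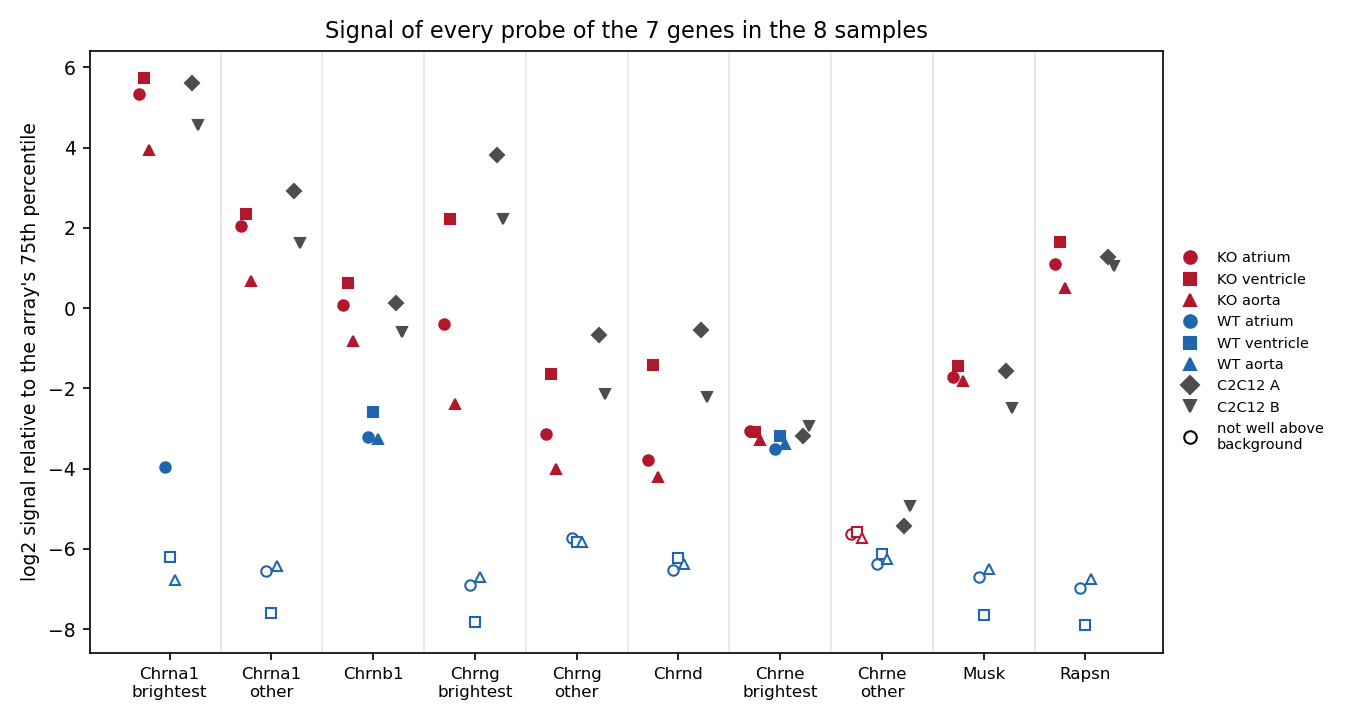
Log2 signal of each of the 10 probes, relative to the 75th percentile of its array, with KO samples in red, WT samples in blue and C2C12 samples in grey. Each point is 1 sample, shapes give the region or C2C12 sample, and open symbols mark samples in which no array was well above background. The KO samples lie above the WT samples for Chrna1, Chrnb1, Chrng, Chrnd, Musk and Rapsn, whereas all groups overlap for the brightest Chrne probe.

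With the slides as a block, 3 members stayed called higher in KO-labelled cells, Chrna1, Musk and Rapsn, where 3.22% of all genes were called higher. Chrnb1, Chrng and Chrnd kept their direction in that fit.

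Against C2C12, the KO-labelled progenitors had 0 members called by limma in either direction, and 1 (Chrng) at an unadjusted p under 0.05. Over all 15805 genes tested, 1.25% were called, so few genes of any kind passed in this comparison. The ranges of KO-labelled and C2C12 samples overlapped for the brightest probe of all 7 genes. The share of all genes with such an overlap was not counted, so this says nothing particular about the members. Rapsn differed by -0.08 (95% interval -1.09 to 0.92) and Chrna1 by -0.08 (-2.21 to 2.05), intervals that include a 2-fold change. Chrnb1 differed by 0.19 (-0.87 to 1.26), Musk by 0.35 (-0.60 to 1.30) and Chrne by -0.07 (-0.46 to 0.32). The 2 genes with the widest KO spread had the lowest estimates. Chrng differed by -3.21 (SE 1.23, -6.10 to -0.31, unadjusted p = 0.0345, adjusted p = 0.345) and Chrnd by -1.76 (-3.76 to 0.23, adjusted p = 0.467). Chrng read 2.22 in KO ventricle, -0.39 in KO atrium and -2.40 in KO aorta, against 3.82 and 2.21 in C2C12 A and B. Of the KO-labelled samples only KO ventricle reached the C2C12 range.

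The WT-labelled progenitors had 6 members called lower than C2C12 and 0 called higher, where 13.2% of all genes were called lower and 13.8% higher. These 6 were Chrna1, Chrnb1, Chrng, Chrnd, Musk and Rapsn, and each stayed called with the slide block, which here sets WT against the C2C12 array of the same slide. The comparison shares the WT-labelled samples with the one above. Chrng was at least 243-fold lower (adjusted p = 0.0012), Rapsn at least 67.0-fold (adjusted p = 2.48e-05), Chrnd at least 11.5-fold (adjusted p = 0.00518) and Musk at least 7.38-fold (adjusted p = 0.000193). The other Chrna1 probe was at least 144-fold lower (adjusted p = 8.24e-05 over probes). Chrnb1 was lower by a log2 difference of -2.79 (SE 0.45, adjusted p = 0.00431) and Chrne differed by -0.29 (-0.69 to 0.10, adjusted p = 0.238).

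**Figure D3:**
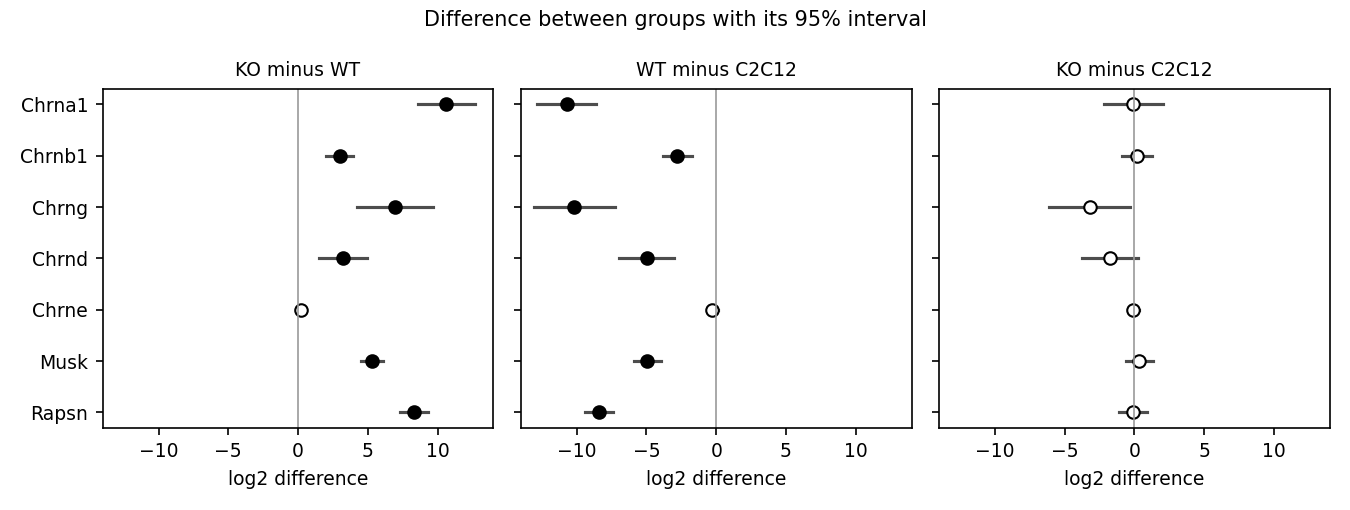
Fitted log2 difference of the brightest probe of each gene with its 95% interval, for KO minus WT, WT minus C2C12 and KO minus C2C12. Filled points are called by limma at an adjusted p under 0.05. Differences that involve WT samples use signals as read, also where no WT array was above background, and are then not exact sizes.

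Within the KO-labelled group the members did not vary to the same extent. All 7 members read higher in KO ventricle than in KO aorta, and 6 of 7 higher than in KO atrium, the exception being Chrne (-0.03). Chrng was 24.5-fold higher in ventricle than in aorta (log2 4.61), Chrnd 6.89-fold (2.79), Chrna1 3.49-fold (1.80), Chrnb1 2.71-fold (1.44) and Rapsn 2.19-fold (1.13). Musk (0.39) and Chrne (0.20) stayed under 2-fold. Thus 5 of 7 members passed 2-fold, against 3.59% of 15805 genes, whose median absolute difference was 0.23. Each region is 1 sample, so this has no replicate check and no test. Repeat arrays of the same sample on other slides differed by at most 0.10 in the probes of the called genes, well inside the regional differences. For the brightest Chrne probe they differed by up to 0.19, close to its ventricle minus aorta difference of 0.20. The direction for Chrne is therefore within the noise of repeat arrays.

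The 2 C2C12 samples also differed in some of these genes. C2C12 A lay on the slides of the KO arrays and C2C12 B on the slide of the WT arrays. Their difference thus cannot be told apart from a slide difference, and the slide block subtracts it from KO minus WT. C2C12 A read above B by 1.68 for Chrnd, 1.61 for Chrng and 1.06 for Chrna1, so 3 members passed 2-fold where 4.08% of genes did. Musk (0.91), Chrnb1 (0.73) and Rapsn (0.22) were closer, and Chrne read lower in A (-0.25). Chrng and Chrnd therefore had the widest gaps both among KO-labelled samples and between the C2C12 samples. Myog, the myogenin gene and a driver of terminal muscle differentiation, followed the same order, with 4.61 in KO ventricle, 1.37 in KO atrium and -0.43 in KO aorta, and 5.82 and 3.94 in C2C12 A and B. Id1, an inhibitor of the MyoD family, was lowest in KO ventricle (2.45, with 3.70 in atrium and 4.51 in aorta) but higher in C2C12 A (4.70) than in B (2.99). These 2 genes were singled out after their values were seen, and their part in the spread of the members was not tested.

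**Figure D4:**
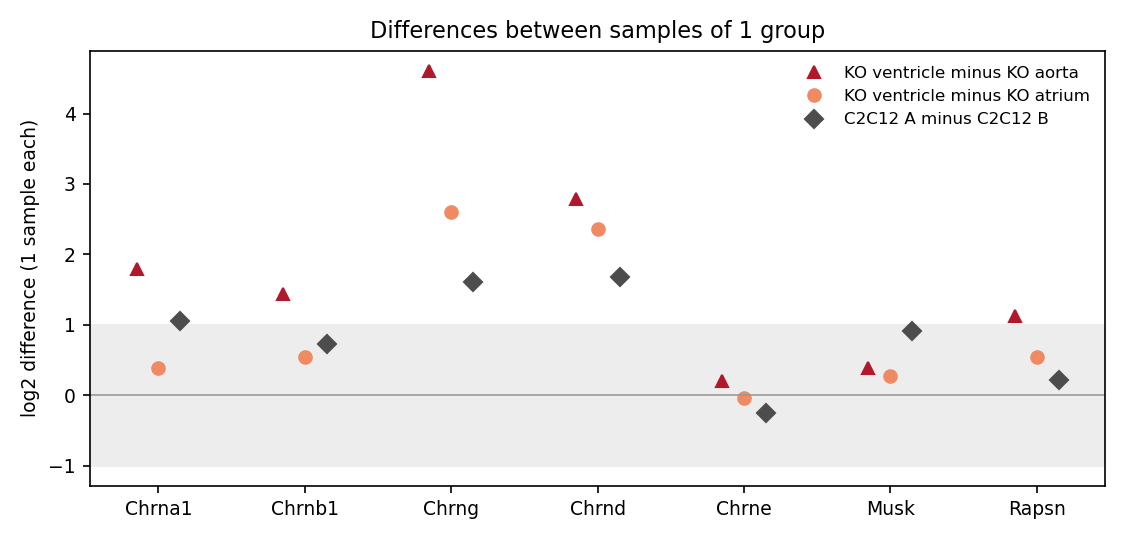
Log2 differences between single samples of 1 group for each gene, as KO ventricle minus KO aorta (triangles), KO ventricle minus KO atrium (circles) and C2C12 A minus C2C12 B (diamonds), with the grey band marking less than 2-fold. Chrng and Chrnd stand highest in all 3 differences, and Chrne and Musk stay within the band.

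Skeletal muscle markers moved with the receptor genes. The summed level of 9 such markers (Myod1, Myog, Myf5, Des, Cdh15, Ckm, Acta1, Myh3 and Mymk, with the 75th percentile as 1) was 134 in KO ventricle, 64.6 in KO atrium and 35.2 in KO aorta. Such sums weight the brightest probes most, so they compare samples within a list only. The sum of the muscle markers was 0.666 to 2.85 in WT-labelled and 84.2 to 218 in C2C12 samples. All 9 were above background in KO-labelled samples on at least 1 array and 4 of 9 in WT-labelled ones. Of 8 tested, 6 were called higher in KO-labelled cells, where 13.7% of all genes were. With the slide block 4 of 9 tested were called higher, where 3.22% of all genes were. Myog and Myh3 lost their calls in that fit (adjusted p = 0.197 and 0.315). Mymk, called in neither fit, changed sign (1.51 without the block and -0.46 with it). Markers of nerve and glia were low. The summed level of 6 motor neuron markers was 0.411 to 0.556 in KO-labelled, 0.0625 to 0.0731 in WT-labelled and 0.204 to 0.227 in C2C12 samples, with Mnx1 and Snap25 not above background on any array. Schwann cell markers summed to 0.175 to 0.276 in KO-labelled and 0.482 to 1.16 in WT-labelled samples. Cardiomyocyte markers summed to 0.717 to 3.68 in KO-labelled, 0.251 to 0.267 in WT-labelled and 4.6 to 8.85 in C2C12 samples, with Tbx5 and Ryr2 not above background on any array. Myh7 made up most of the sum in KO ventricle (log2 1.36) and in C2C12 A and B (3.05 and 2.04). Of 5 tested, 3 were called higher in KO-labelled cells, and Myh7 was not called (adjusted p = 0.0864). The 3 called higher were Nkx2-5, Gata4 and Tnni3. Nkx2-5 read -1.38 to -0.35 in KO-labelled samples and was not above background on any WT array. Its limma call (adjusted p = 0.000144) held in the fit with the slide block (adjusted p = 0.0077). Gata4 and Tnni3 lost their calls in that fit (adjusted p = 0.148 and 0.69). Nppa was called lower (difference -2.22, adjusted p = 0.00037, slide-blocked 0.0281). Markers of pericytes and mesoangioblasts, the labelled cell type, summed to 18.6 to 24.8 in KO-labelled, 8.04 to 10.8 in WT-labelled and 44.0 to 45.3 in C2C12 samples, and 2 of them, Alpl and Abcc9, were not above background on any array. Other lists had lower sums in KO-labelled than in WT-labelled cells. Of 4 fibroblast markers tested, 3 were called lower in KO-labelled cells and 1 (Col1a1) higher, against 16.1% and 13.7% of all genes. With the slide block only Thy1 stayed called (lower, adjusted p = 0.0086). Pdgfra, Dcn and Col1a1 lost their calls in that fit (adjusted p = 0.0629, 0.367 and 0.179). The list summed to 72.8 to 76 in KO-labelled, 78.8 to 136 in WT-labelled and 76.2 to 80.6 in C2C12 samples. In KO-labelled samples Col1a1 (log2 6.17 to 6.22) made up most of that sum. Macrophage and blood markers summed to 0.0939 to 0.149 in KO-labelled, 1.1 to 2.24 in WT-labelled and 0.141 to 0.147 in C2C12 samples. Of the 3 tested, 1 was called lower (Lyz2, macrophage lysozyme, slide-blocked adjusted p = 0.0108), while Ptprc and Adgre1 were not above background on any array. Of 4 endothelial markers, 3 were not above background on any array. The part of these cells in the receptor results was not tested.

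The wider endplate machinery did not follow the receptor as a block. Of 31 organiser and scaffold genes, 29 were tested, with a median of 0.19 against -0.06 over all genes. In KO-labelled cells 6 were higher and 4 lower, against 13.7% and 16.1% of all genes, and 19 were not called. With the slide block 2 were higher and 1 lower, where 3.22% of all genes were called higher. Lama5, Dok7, Lama4 and Ncam1 were among the largest called differences between KO-labelled and WT-labelled cells. Lama5, a laminin alpha chain of the synaptic basal lamina, was at least 85.5-fold higher in KO-labelled cells (adjusted p = 6.46e-05, slide-blocked 0.0045). It read 1.33, 1.91 and 1.31 in KO atrium, ventricle and aorta and was not above background on any WT array. Lama4, another laminin alpha chain of that lamina, went the other way, at -2.51 to -2.10 in KO-labelled and 0.43 to 1.16 in WT-labelled samples (difference -3.18, SE 0.23, adjusted p = 0.000303, slide-blocked 0.019).

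Dok7 encodes the cytoplasmic activator of MuSK. It read 0.43, 1.43 and -0.85 in KO atrium, ventricle and aorta and -4.34, -3.29 and -3.34 in WT atrium, ventricle and aorta, with 2 of 3 WT arrays above background. Dok7 was called higher in KO-labelled cells (difference 3.99, SE 0.61, adjusted p = 0.00538) but not with the slide block (1.87, adjusted p = 0.5). C2C12 A and B differed by more than 2 units for Dok7, at 3.21 and 1.08. Ncam1, a cell adhesion molecule of myotubes and denervated fibres, was 1.44 higher (SE 0.37, adjusted p = 0.0311), a call lost with the slide block (1.35, adjusted p = 0.402) and without any 1 of KO atrium, KO ventricle, KO aorta or WT aorta (adjusted p up to 0.0939). It was also lost with normexp (1.28, adjusted p = 0.0582) and with no filter on dim probes (adjusted p = 0.0588), and the mean over its probes gave 0.68 (adjusted p = 0.0463).

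The other ligand, co-receptor and matrix genes of the pathway gave no call. Agrn, whose neural splice forms activate MuSK, read 2.89 to 3.14 in KO-labelled and 4.04, 3.0 and 3.31 in WT atrium, ventricle and aorta (difference -0.40, adjusted p = 0.331), and no probe was matched to a splice form. Lrp4, the agrin receptor, read -1.98 to -1.10 in KO-labelled samples and -1.64, -4.60 and -5.46 in WT atrium, ventricle and aorta. The difference of 2.35 (SE 0.97, adjusted p = 0.12) became 3.48 without WT atrium (adjusted p = 0.00242) and 1.57 without WT aorta (adjusted p = 0.282), and passed with every array as its own sample (2.36, adjusted p = 0.0385). Utrn, the utrophin gene, differed by 0.62 (SE 0.29, adjusted p = 0.163). Ache, which encodes acetylcholinesterase, and Colq, its collagen tail, were not above background on any array. Against C2C12, 0 of 29 of these genes were called in KO-labelled cells (0 at an unadjusted p under 0.05), where 1.25% of all genes were. In WT-labelled cells 4 of the 29 were higher and 7 lower, against 13.8% and 13.2% of all genes.

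**Figure D5:**
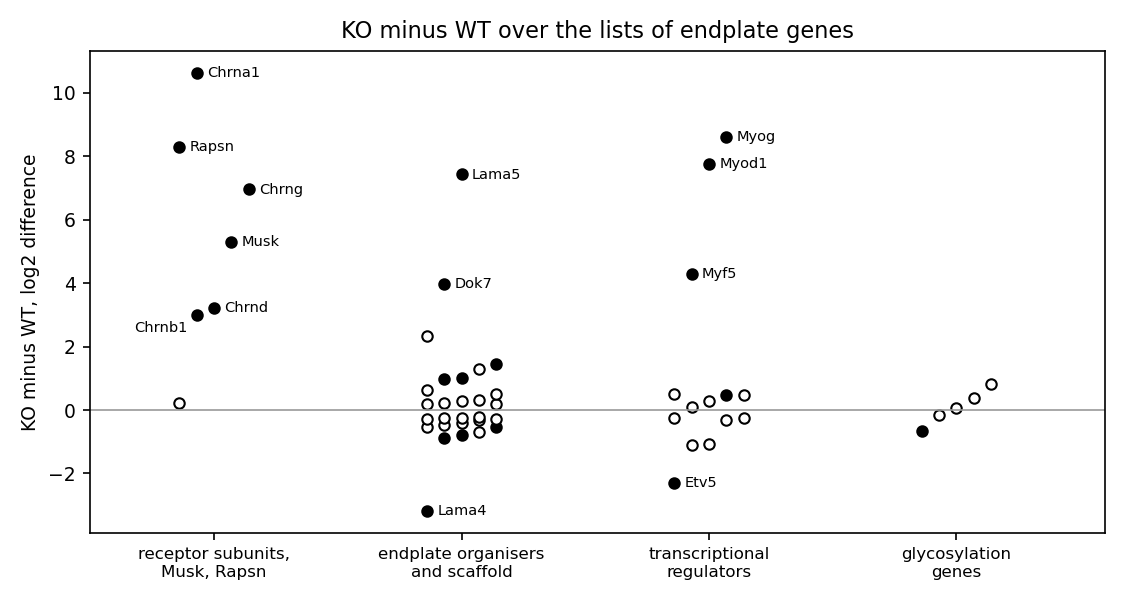
Fitted log2 difference, KO minus WT, of the tested genes in 4 lists, 1 gene left out, with filled points for calls by limma at an adjusted p under 0.05. The called receptor genes lie between about 3 and 11, Lama5 and Dok7 lie above the other organiser genes shown, and Lama4 and Etv5 lie lowest. Differences of genes not above background in WT samples are as fitted and not exact sizes.

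Neuronal-type nicotinic subunits were nearly all undetected. Of 11 such genes, 9 were not above background on any array, Chrna4 was above it on 2 C2C12 arrays, and Chrna10 on 2 KO and 3 C2C12 arrays and on no WT array. None was tested between KO-labelled and WT-labelled cells in the fit of the 6 heart samples. With the slide block Chrna10 was tested and not called (1.41 as fitted, limma adjusted p = 0.261). Against C2C12 Chrna10 was called lower in WT-labelled cells (-1.53 as fitted, adjusted p = 0.0118), where 13.2% of all genes were. Among the nicotinic subunit genes looked up, those detected in KO-labelled cells were the muscle subunits and, on 2 arrays, Chrna10. For Chrne this rests on the brightest probe, and whether that probe reads Chrne or the overlapping 4930544D05Rik was not tested. Other acetylcholine receptor genes were not looked up.

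Of 17 transcriptional regulators of the subunit genes, 14 were tested, with a median of 0.19. In KO-labelled cells 4 were higher and 1 lower, against 13.7% and 16.1% of all genes, and 9 were not called. With the slide block 2 were higher and 1 lower, where 3.22% of all genes were called higher. Myog was at least 108-fold higher (adjusted p = 0.00373), a call that ended with the slide block (6.73 as fitted, SE 2.42, adjusted p = 0.197, against 8.62 and SE 1.2 without it). Myod1, the MyoD gene, read 2.09 to 3.05 in KO-labelled samples, against -5.39 to -4.80 in WT-labelled ones (adjusted p = 3.26e-05), with 1 of 3 WT arrays above background. Myf5, a regulator of myoblast determination, was at least 4.33-fold higher (adjusted p = 0.00148). These 3 encode myogenic factors that bind E-boxes.

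Of the ETS-family and GABP genes in the list, 1 was called higher, 1 lower and 2 not called. Gabpa, which encodes the DNA-binding subunit of the N-box factor GABP, was 0.46 higher (SE 0.13, adjusted p = 0.0404), a call lost under 11 of 17 alternative settings. Etv5, an ETS factor needed for subsynaptic gene expression in mice, was -4.31 to -3.89 in KO-labelled and -2.15 to -1.49 in WT-labelled samples (difference -2.29, SE 0.22, adjusted p = 0.000842), but was not called with normexp background correction (adjusted p = 0.051). Etv4, a related ETS factor, differed by -1.09 (SE 0.49, adjusted p = 0.144), and Gabpb1, the partner subunit of GABP, by -0.32 (SE 0.14, adjusted p = 0.133). Dach2, a repressor of Myog, was not above background on any KO or C2C12 array and read 0.07 in WT ventricle and -0.03 in WT aorta, both above background, and -4.54 in WT atrium. It was not tested because under 3 arrays measured it, and it was singled out after its values were seen. Of 5 glycosylation genes whose variants cause congenital myasthenia in people, 0 were higher and 1 lower, against 13.7% and 16.1% of all genes. The other 4 were not called. That 1 was Alg2 (-0.67, SE 0.13, adjusted p = 0.0124), a call lost with the slide block (-0.06, adjusted p = 0.935), with median scaling (adjusted p = 0.058), with no filter on dim probes (adjusted p = 0.0623) and without KO aorta (adjusted p = 0.0571).

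The genes most like each member over the 8 samples were named by Pearson's r among 15804 other genes, as a description. In most members the WT-labelled samples lie apart from the other 5, and that separation is part of every r. For Chrng they were Dusp27 (r = 0.998), Tnnt1 (0.997), the slow skeletal troponin T gene, and Dll1 (0.996), a Notch ligand. For Chrnd they were Tnnt3 (0.992), the fast skeletal troponin T gene, and Btbd17 (0.991). For Chrna1 they were Ubac1 (0.997), Tmcc2 (0.996) and Sidt2 (0.996), and for Chrnb1 Cd82 (0.995), AW324464 (0.991) and Smarcd3 (0.989). Rapsn had Tmeff2 and Zic1, and Musk had Baiap2l1 as the highest gene with a symbol (0.999). Chrne, whose levels hardly varied, had Scube1 (0.984).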

How the data were processed

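RNA was labelled with Cy3 and read on one-colour Agilent arrays with a 60-base probe per spot. The deposited intensity values are the scanner software's processed signals, background-subtracted and spatially detrended per the file headers (Agilent Feature Extraction 9.5.3.1). The authors' series-wide table of deposited log2 values equals log2 of those signals within 0.01 for 99.7 to 99.8% of probes, so it holds no scaling between arrays. Its column medians were 5.45 to 5.77. Genome build mm8 stands in the probe coordinates of the files. The members and gene lists were chosen with earlier results of these data known.

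Control spots (1639 of 45018 per array) and 39 to 120 outlier spots were left out, and 0 spots were saturated. Each array's signal was divided by its 75th percentile (960.6 to 1145.5 intensity units) and taken to log2. Probes were named by accession (24340), symbol (6299), synonym (2418) or kept as in the file (8064). Replicate spots of a probe were averaged and the brightest probe stood for its gene. Probes well above background on at least 3 fitted arrays were tested with limma 3.58.1 (R 4.3.3), Benjamini-Hochberg over all tested genes, two-sided. KO against WT used the 6 heart samples, and comparisons with C2C12 all 8. "At least N-fold" sets the bright group's mean against, per array of the dim group, the dimmest signal still well above background (or the probe's reading, if brighter), where no array of that group measured the probe. Of 16 array pairs, 3 differed by 0.636 to 0.738 times spot noise over 13874 bright probes and were joined, and the others by 2.63 to 6.83 times. Slides 1 and 3 counted as 1 block. All members, every probe, were named, and from each list up to 5 called genes with the largest difference, plus Agrn, Lrp4, Dok7, Ache, Colq and Utrn. Some genes these rules pick are not reported here. Alternatives were the background correction (normexp, offset 50), scaling, filters, probe choice, blocks and each sample left out. The fit was tested on simulated data. The number of arrays limits the precision.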

Additional observations from a re-analysis of the deposited data

How the results depend on the processing

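Over the 7 members and 3 comparisons, 340 of 357 alternative values kept their direction and their side of the threshold, 5 lost a call and 12 changed sign. With the slide block the members called between KO and WT fell to 3, since Chrnb1 (2.26, adjusted p = 0.196), Chrng (5.35, adjusted p = 0.265) and Chrnd (1.55, adjusted p = 0.645) were no longer called. Chrnd was also lost without WT ventricle or WT aorta. All sign changes were in KO minus C2C12 differences that were never called. With the slide block Chrnb1 was -0.17, Chrne 0.05 and Musk -0.10, and with normexp Chrne was 0.01. Leaving out 1 sample gave -0.61 to 0.45 for Chrna1, -0.17 to 0.58 for Chrnb1, -0.20 to 0.05 for Chrne, -0.10 to 0.81 for Musk and -0.36 to 0.20 for Rapsn. The 6 calls of WT against C2C12 held under all alternatives run. Of 238 alternative values of the pathway genes the naming rule picked, a set added after seeing the data, 25 lost a call and 2 (Lrp4) gained one. The cause was not tested.

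Counts over all genes moved more. KO against WT gave 2048 higher and 2413 lower, or 3015 and 3634 with every array as its own sample, 1541 and 1252 with normexp and 509 and 382 with the slide block. Leaving out 1 sample gave 1293 to 2898 higher and 1297 to 2975 lower, with 5 to 6 members called. KO against C2C12 gave 105 higher and 93 lower, or 855 and 774 with every array separate, 31 and 14 with normexp, 58 and 41 with no filter, 16 and 11 with the slide block, and 7 and 6 (without C2C12 A) to 275 and 189 (without WT atrium). WT against C2C12 gave 2177 and 2088, or 3473 and 3188 with every array separate, 1062 and 1446 with normexp, 1163 and 1123 with the slide block, and from 1166 and 1107 (without C2C12 A) to 2754 and 2870 (without WT atrium). Signals near background limit the size of 4 members in WT cells to bounds. The labels carry no replicate numbers, but heart region pairs the KO and WT samples, and with region as a block 6 members were called, as without it (Chrnd 3.23, adjusted p = 0.0265).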
